A study of Rattus norvegicus with 4 samples.

Results

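Cytosolic ribosomal proteins are the proteins that, with ribosomal RNA, build the 60S (large) and 40S (small) subunits of the ribosomes that translate nuclear-encoded mRNAs. Their mRNAs were followed in neonatal rat ventricular cardiomyocytes transfected with a synthetic mimic of 1 of the 3 miRNAs of the miR-106b~25 cluster. Members were the rows of the deposited expression table whose symbol was Rpl or Rps followed by a digit, or Rplp0, Rplp1, Rplp2 or Rpsa, without the S6 kinases and pseudogenes, and whose level was above 10 RPKM in the control library. RPKM is the number of reads per kilobase of gene and per 1000000 reads of the library. The rule held 82 of the 15731 rows in the table, with 74 distinct symbols, 53 rows for the 60S and 29 for the 40S subunit. A further 14 rows matched by symbol but lay below the cutoff, so 96 rows matched in all. The member nearest the cutoff was Rpl10l at 13.1 RPKM in the control, and the nearest row below it was Rps4y2 at 9.63 RPKM. The members comprised 75 rows of core proteins, 6 rows of paralogs (Rpl7l1, Rpl10l, Rpl22l1, Rpl31l4, Rpl36al and Rps27l) and Rps19bp1, which binds Rps19 and is itself no ribosomal protein.

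The cells were wild-type ventricular cardiomyocytes of Wistar rats, given as postnatal day 1 in the sample characteristics and as day 0 in a protocol text, and the groups were miR-106b, miR-93, miR-25 and the control, cel-miR-67, a mimic of a worm miRNA. All 4 cultures received a mimic with a lipid reagent, at 25 nM in 1 protocol text of the labels (another text and the methods print the same figure as mM), and were harvested 72 h later. Each mimic gave 1 library, so no difference below has a replicate check and no test was made. The 95% intervals are exact Clopper-Pearson intervals from reads recovered from the RPKM values, and they cover counting error only. A gene was counted as past the cutoff when its RPKM ratio exceeded 1.3-fold in either direction and its RPKM was above 1.0 in both libraries, a condition that all 82 members met in every comparison.

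Ribosomal protein genes are among the most highly expressed genes of most cells, and proteins that find no place in a subunit are degraded. In vertebrates their mRNAs start with a C followed by a run of pyrimidines, the TOP motif, through which mTOR and the RNA-binding protein Larp1 control their translation. Growth of the heart after birth depends on ribosome supply, since cardiomyocytes enlarge by making protein. A miRNA is loaded into Argonaute and pairs with target mRNAs mainly through its seed, bases 2 to 8. The mature sequences of the 3 miRNAs, shown because the seed was shared by miR-106b and miR-93 and not by miR-25, are given here from RefSeq (build GRCr8) with the seed in capitals. They lie on the minus strand at chr12:22157103-22157123 (miR-106b), chr12:22156894-22156916 (miR-93) and chr12:22156652-22156673 (miR-25).
rno-miR-106b-5p: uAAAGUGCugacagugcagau
rno-miR-93-5p: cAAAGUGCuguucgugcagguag
rno-miR-25-3p: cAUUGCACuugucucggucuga

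Start-site sequences of members were read from the same RefSeq build, because the TOP motif is what these genes are known to share. A promoter was given for 56 of the 74 symbols, 57 promoters in all, and the window ran 30 bases to each side of the annotated start. The longest run of C and T in the window had a median length of 11 bases in members and of 5 in all 33469 promoters. A run of 8 bases or more was held by 43 of the 57 member promoters (75.4%) and by 23.2% of all promoters. On the gene's strand CTTTCC was found in 18 member promoters (31.6%) and in 2.59% of all, and TTCCTTT, which can overlap it, in 12 (21.1%) and in 1.04%. On the opposite strand CTTTCC was found in 1.75% of member promoters and in 2.78% of all, and TTCCTTT in 0 of the members and in 0.944% of all. The windows below are of members described in the following paragraphs, 5′ to 3′ on the gene's strand, with the longest run of C and T in capitals and the annotated start at base 31.
Rps2 (chr10:14251818-14251877, plus strand): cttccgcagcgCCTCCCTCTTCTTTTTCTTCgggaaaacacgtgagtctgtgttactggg
Rplp0 (chr12:46718361-46718420, minus strand): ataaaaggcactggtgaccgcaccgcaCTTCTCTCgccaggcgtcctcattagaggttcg
Rpl13a (chr1:104748884-104748943, minus strand): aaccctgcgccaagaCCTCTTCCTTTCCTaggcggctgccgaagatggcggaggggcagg
Rpl34 (chr2:221962254-221962313, minus strand): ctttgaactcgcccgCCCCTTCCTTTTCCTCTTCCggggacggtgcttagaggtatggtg
Rpl35 (chr3:43165892-43165951, minus strand): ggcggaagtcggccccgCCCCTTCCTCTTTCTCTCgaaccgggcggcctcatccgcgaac
Rps27 (chr2:177964577-177964636, minus strand): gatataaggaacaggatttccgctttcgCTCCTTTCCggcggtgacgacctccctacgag
Rpl37a (chr9:81748061-81748120, plus strand): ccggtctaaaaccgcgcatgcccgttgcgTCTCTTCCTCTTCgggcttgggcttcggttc
Rps16 (chr1:92770628-92770687, plus strand): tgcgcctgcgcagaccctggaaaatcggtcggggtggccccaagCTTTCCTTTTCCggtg
Rpl28 (chr1:78083503-78083562, minus strand): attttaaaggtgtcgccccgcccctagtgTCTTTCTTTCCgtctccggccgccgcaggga
Rpl26 (chr10:54109662-54109721, plus strand): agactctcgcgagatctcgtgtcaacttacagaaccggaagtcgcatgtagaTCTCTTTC
Rpl36 (chr9:1533750-1533809, plus strand): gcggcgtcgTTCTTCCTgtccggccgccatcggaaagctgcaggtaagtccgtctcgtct
Rpl3 (chr7:113507961-113508020, minus strand): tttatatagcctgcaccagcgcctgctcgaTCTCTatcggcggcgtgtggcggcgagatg

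In Rps2, Rplp0, Rpl34, Rpl35, Rps27, Rpl37a and Rpl28 the run included the annotated start. In Rpl13a and Rpl36 it ended before the start, in Rps16 and Rpl26 it lay within the transcribed part, and in Rpl3 it was only 5 bases long. The longest run had 8 bases or more and included the start in 27 of the 57 member promoters (47.4%) and in 3.91% of all. The 49 member rows whose first listed promoter held a run of 8 bases or more had a median log2 ratio to the control of 0.23 (miR-106b), -0.24 (miR-93) and -0.46 (miR-25). In the 14 rows with a shorter run the medians were 0.11, -0.12 and -0.27 in the same order. The group with the longer run lay farther from the control with each mimic. It held all of these member rows that share a symbol, and rows of the same symbol were given the same promoter. When each library was rescaled to the same summed RPKM, the miR-93 median of the rows with a shorter run became 0.03 and no other of these signs changed. For miR-93 over miR-106b the medians of the rows with a longer and a shorter run were close, at -0.39 and -0.36. A match of letters is no evidence that a start site is used in these cells.

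The ribosomal protein mRNAs were abundant in all 4 libraries, and their summed level was highest with miR-106b and lowest with miR-25. Reads on genes numbered between 15175185 and 18797234 per library. The summed RPKM of the 82 members was 24764 in control cells, 27260.4 after miR-106b, 21859 after miR-93 and 19544 after miR-25, which is 110.1%, 88.3% and 78.9% of the control for the 3 miRNAs. They took 2.72% of the reads on genes in the control, 3.05% after miR-106b, 2.68% after miR-93 and 2.46% after miR-25. In the control 61 of the members were above 100 RPKM, and the median member had 4450 reads there. The fewest reads behind any member value were 56, for Rps28 with miR-25. Because RPKM is relative, fewer cells of a type and less RNA per cell cannot be told apart in such bulk samples.

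The 5 highest members in the control were Rps2 (979 RPKM), Rplp0 (919), the higher of the Rplp1 rows (852), Rpsa (767) and Rpl13a (748). The 5 lowest were Rpl10l (13.1 RPKM), the lowest of the Rpl35a rows (14.0), Rps28 (15.2), Rpl31l4 (22.8) and Rps19bp1 (22.8). The library with the highest level was miR-106b for 58 members, cel-miR-67 for 16, miR-93 for 6 and miR-25 for 2. The lowest level was with miR-25 for 63 members, miR-93 for 9, cel-miR-67 for 7 and miR-106b for 3. The plot of levels shows this row by row. In 62 of the 82 members the levels ran in the order miR-106b above miR-93 above miR-25.

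**Figure D1:**
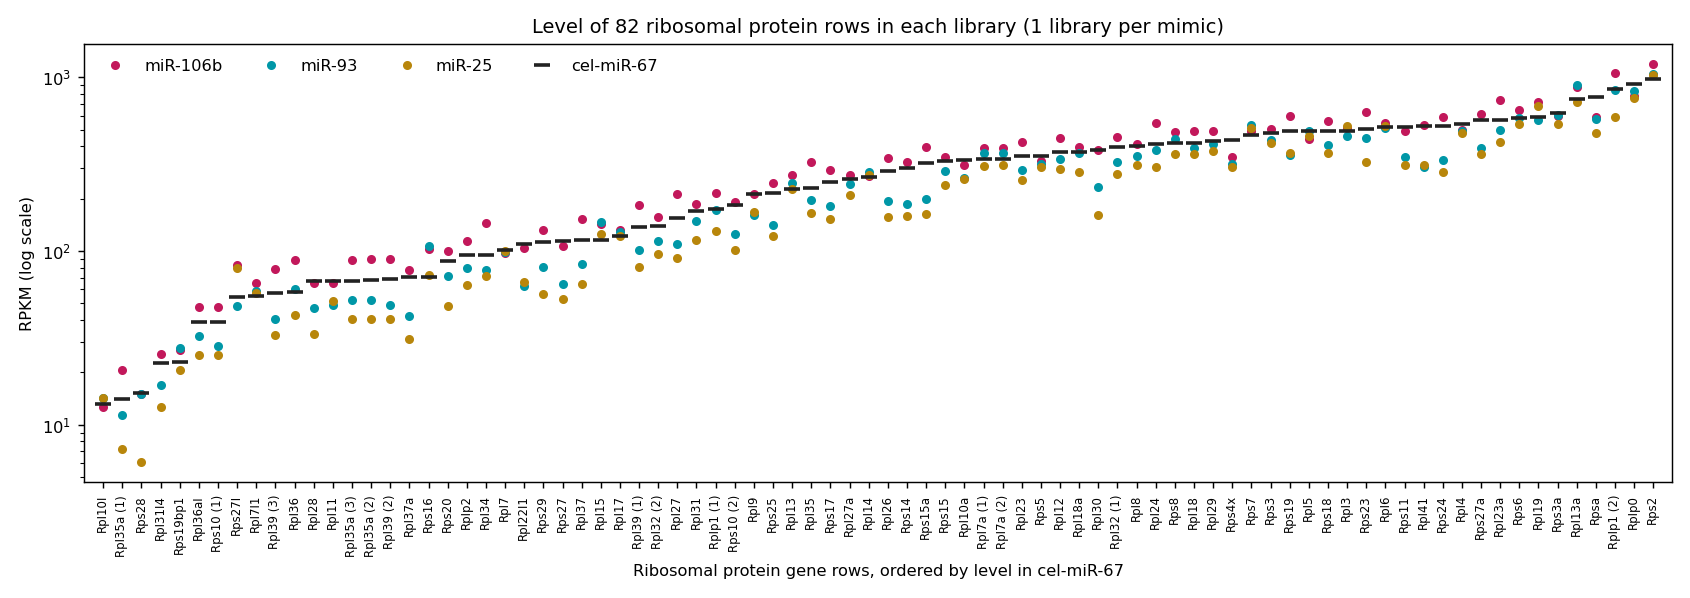
Level of each of the 82 ribosomal protein rows in RPKM (log scale) in the 4 libraries, ordered by level in cel-miR-67 (black bars); rows that share a symbol are numbered. The miR-25 points are the lowest of the 4 for 63 rows and the miR-106b points the highest for 58.

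Several symbols stood on more than one row: 14 rows shared 6 symbols (Rpl7a, Rpl32, Rpl35a, Rpl39, Rplp1 and Rps10). The Rpl7a rows were nearly identical, at 337 RPKM each in the control and at 310.1 and 311 with miR-25. Likewise a pair of the Rpl35a rows stood at 67.9 and 67.4 RPKM in the control. Ribosomal protein genes have many processed copies in mammalian genomes, and how reads that match several copies were assigned is not given in the sources used here, so the level of any member with a near-identical copy is uncertain and such rows are no independent measurements.

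With the miR-106b mimic, ribosomal protein mRNAs were on the whole slightly higher than with cel-miR-67. The median log2 ratio of the members was 0.19, against -0.00 over all genes tested and -0.02 over genes above 10 RPKM in the control. It was positive in 65 members and negative in 17. Past 1.3-fold, 15 members were higher (18.3%, against 11.9% of all genes tested) and 0 were lower (against 12.7% of all genes). Of the 15 higher members, 13 were 60S rows and 2 were 40S rows.

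The 6 largest ratios with miR-106b were those of Rpl36, Rps27l, Rpl34, a row of Rpl35a, Rps16 and Rpl35, which apart from Rps27l and Rps16 belong to the 60S subunit. Rpl36 stood at 58.4 RPKM in control cells, 89.2 after miR-106b, 60.3 after miR-93 and 42.6 after miR-25, a log2 ratio of 0.61 (0.44 to 0.78) for miR-106b. Rpl34 stood at 95.1 RPKM in control cells, 144 after miR-106b, 78.0 after miR-93 and 71.9 after miR-25, a log2 ratio of 0.60 (0.50 to 0.70). In both genes the miR-106b library was the highest of the 4, and the other two mimics were close to the control or below it. Rpl35, which sits at the rim of the exit tunnel through which the new protein leaves, stood at 232 RPKM in control cells, 323 after miR-106b, 197 after miR-93 and 165 after miR-25, a log2 ratio of 0.48 (0.41 to 0.55). Rps16, whose tail reaches toward the transfer RNA in the peptidyl site, stood at 70.8 RPKM in control cells, 103 after miR-106b, 107 after miR-93 and 72.2 after miR-25. Its log2 ratios were 0.54 (0.44 to 0.63) after miR-106b, 0.59 (0.49 to 0.69) after miR-93 and 0.03 (-0.08 to 0.13) after miR-25, so that it was the single member past the cutoff upward with miR-93.

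The 6 smallest ratios with miR-106b were those of Rpsa, Rps4x, Rplp0, Rpl5, Rpl4 and Rpl10a, all of them within the 1.3-fold cutoff. Rpsa, a 40S protein also known as a laminin receptor, stood at 767 RPKM in control cells, 593 after miR-106b, 573 after miR-93 and 479 after miR-25. Its log2 ratio was -0.37 (-0.40 to -0.34) after miR-106b, -0.42 (-0.45 to -0.39) after miR-93 and -0.68 (-0.71 to -0.65) after miR-25, so all 3 mimics were below the control. Rps4x, a 40S protein, showed a like order, at 437 RPKM in control cells, 349 after miR-106b, 315 after miR-93 and 305 after miR-25. Of these 6 genes all but Rpl10a had a recovered length of 750 nt or more.

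With the miR-93 mimic, which carries the same seed as miR-106b, ribosomal protein mRNAs were lower than in the control. The median log2 ratio of the members was -0.22, against -0.00 over all genes tested and -0.06 over genes above 10 RPKM in the control, and 67 of the 82 members were negative. Past 1.3-fold, 29 members were lower (35.4%, against 15.6% of all genes tested) and 1 was higher (1.22%, against 15.1%). The size depended on the scaling: the summed RPKM of all genes was lower with miR-93 than in the control by 0.15 on the log2 scale, and when each library was rescaled to the same sum the median of the members was -0.07, with 13 lower and 4 higher, so that 76.5% instead of 96.7% of the calls were lower. The 4 were Rps16, Rpl15, Rps19bp1 and Rpl13a. Here and below, no share of all genes past the cutoff is given on the rescaled values. The shares printed are of the deposited values and do not apply to the rescaled counts. On the rescaled values 48 members were negative and the median of all genes tested was 0.14, so that the members lay below the typical gene by the same amount. Centring on the median gene or trimmed mean scaling (TMM) left 29 lower and 1 higher.

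Lowest relative to the control with miR-93 were Rps27, Rpl22l1, Rpl41, Rpl37a, Rps14 and Rpl30. Rps27, a zinc-binding 40S protein, stood at 113 RPKM in control cells, 107 after miR-106b, 64.8 after miR-93 and 52.6 after miR-25, a log2 ratio of -0.81 (-0.96 to -0.66) for miR-93. Rpl41, one of the smallest proteins of the cell, which bridges the subunits, stood at 522 RPKM in control cells, 528 after miR-106b, 305 after miR-93 and 313 after miR-25, a log2 ratio of -0.78 (-0.84 to -0.71). For Rpl41 the miR-93 and miR-25 libraries lay together and apart from the miR-106b and control libraries. Rpl37a, a zinc-binding 60S protein, stood at 70.6 RPKM in control cells, 77.2 after miR-106b, 42.0 after miR-93 and 31.1 after miR-25, a log2 ratio of -0.75 (-0.92 to -0.58). Rps14, a protein of the 40S platform, stood at 302 RPKM in control cells, 325 after miR-106b, 185 after miR-93 and 159 after miR-25, a log2 ratio of -0.70 (-0.78 to -0.62). In both, the miR-106b library was slightly above the control while miR-93 and miR-25 were far below it.

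The 6 largest ratios with miR-93 were those of Rps16, Rpl15, Rps19bp1, Rpl13a, Rps7 and Rpl13. Rpl15, a 60S protein, stood at 116 RPKM in control cells, 143 after miR-106b, 147 after miR-93 and 125 after miR-25, a log2 ratio of 0.34 (0.29 to 0.39). Rpl13a, a 60S protein often taken as a reference gene in quantitative PCR, stood at 748 RPKM in control cells, 875 after miR-106b, 899 after miR-93 and 719 after miR-25, a log2 ratio of 0.26 (0.23 to 0.30) with miR-93 and of -0.06 (-0.10 to -0.02) with miR-25. Both genes were higher with miR-93 than in the control, against the direction of most members, and neither passed 1.3-fold on the deposited values.

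With the miR-25 mimic, ribosomal protein mRNAs were lowest. The median log2 ratio of the members was -0.44, against -0.01 over all genes tested and -0.10 over genes above 10 RPKM in the control, and 70 of the 82 members were negative. Past 1.3-fold, 47 members were lower (57.3%, against 22.6% of all genes tested) and 1 was higher (1.22%, against 19.3%). The summed RPKM of all genes was lower with miR-25 than in the control by 0.24 on the log2 scale, and after rescaling to the same sum the median was -0.20, with 31 members lower and 2 higher (Rps27l and Rpl19). On the rescaled values 55 members were negative, and the median of all genes tested was 0.22. On every scaling tried, more members were past the cutoff downward than upward with miR-25.

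The 6 smallest ratios with miR-25 were those of Rps28, Rpl30, Rpl37a, Rps27, Rpl28 and Rps29. Rps28, a protein of the 40S head, stood at 15.2 RPKM in control cells, 15.1 after miR-106b, 14.9 after miR-93 and 6.06 after miR-25, a log2 ratio of -1.33 (-1.81 to -0.86) that rested on few reads and had the widest interval of the 6. Rpl30, a 60S protein, stood at 379 RPKM in control cells, 381 after miR-106b, 234 after miR-93 and 162 after miR-25, a log2 ratio of -1.23 (-1.32 to -1.14), with a level in the miR-25 library that was 42.7% of the control. The miR-106b and control libraries of Rpl30 were equal within counting error, the miR-93 library was lower and the miR-25 library lower still. The libraries of Rpl37a stood in the same order, with 44.0% of the control level in the miR-25 library and a log2 ratio of -1.18 (-1.37 to -0.998). Rpl28 stood at 66.9 RPKM in control cells, 65.6 after miR-106b, 47.1 after miR-93 and 33.3 after miR-25, a log2 ratio of -1.01 (-1.11 to -0.91) for miR-25. Rps29, a zinc-binding 40S protein, stood at 112 RPKM in control cells, 131 after miR-106b, 81.1 after miR-93 and 56.8 after miR-25, a log2 ratio of -0.99 (-1.15 to -0.82).

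The 6 largest ratios with miR-25 were those of Rps27l, Rpl19, Rps7, Rpl10l, Rpl15 and Rpl3. Rps27l was the single member past the cutoff upward, and Rpl19, a 60S protein of the exit tunnel rim, stood at 594 RPKM in control cells, 717 after miR-106b, 569 after miR-93 and 681 after miR-25, a log2 ratio of 0.20 (0.16 to 0.24). Rps7, a 40S protein, was above the control with all 3 mimics, at 467 RPKM in control cells, 493 after miR-106b, 534 after miR-93 and 509 after miR-25. Rpl3, which lies close to the peptidyl transferase centre, stood at 492 RPKM in control cells, 507 after miR-106b, 462 after miR-93 and 522 after miR-25, so its 4 libraries spanned a narrow range.

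The heat map gives all 3 ratios of every row.

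**Figure D2:**
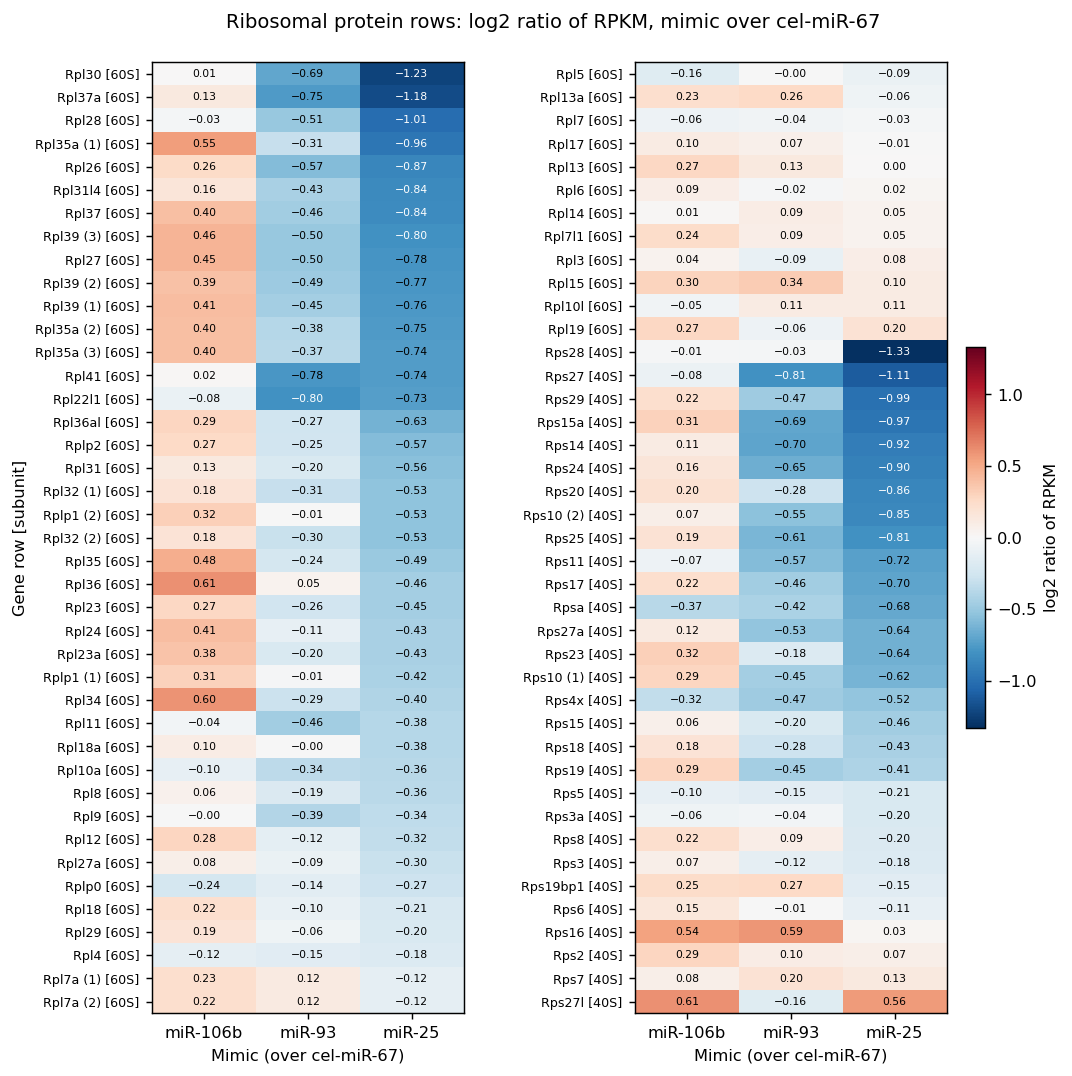
log2 ratio of RPKM of each mimic over cel-miR-67 for the 82 rows (red higher, blue lower; the value is printed in each cell), the 60S rows first and then the 40S rows, each ordered by the miR-25 value. Blue fills most of the miR-25 column, with Rps28 at -1.33 and Rpl30 at -1.23, while Rps27l is at 0.56.

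The cumulative plot sets the whole group beside the other genes above the same control cutoff, which were not matched to the members for level or length.

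**Figure D3:**
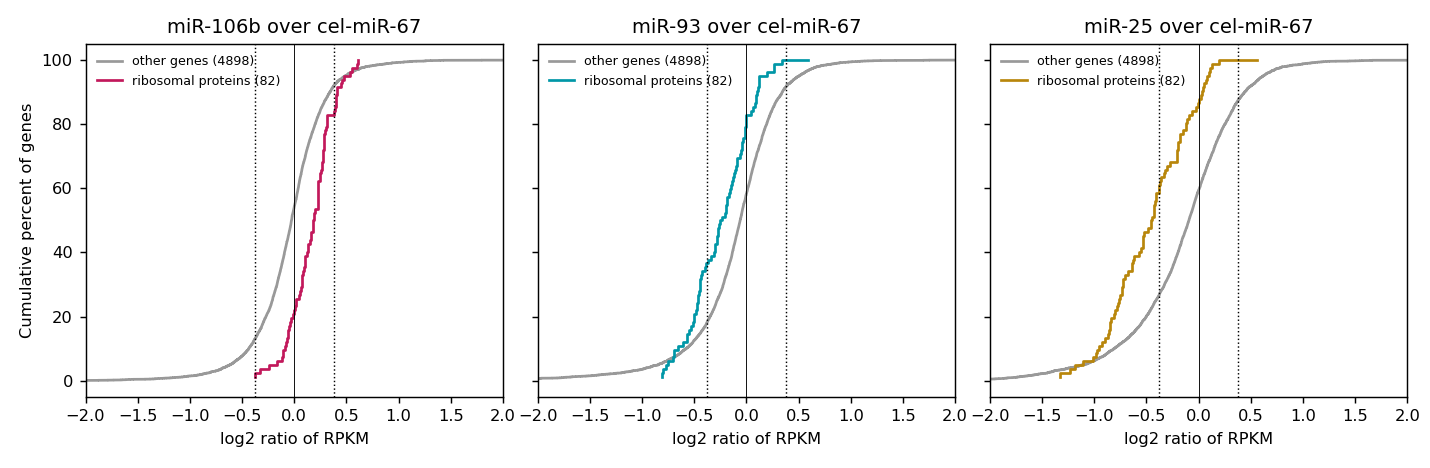
Cumulative percent of genes against the log2 ratio of RPKM over cel-miR-67 for the 82 ribosomal protein rows (coloured) and for the 4898 other genes above 10 RPKM in the control (grey); dotted lines mark 1.3-fold, and the axis ends at 2 on either side. The coloured curve lies to the right of the grey one through most of its range with miR-106b and to the left with miR-93 and miR-25, where the medians are -0.22 and -0.44.

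The mimics were also compared with each other, which takes the control library out of the ratio. Between miR-93 and miR-106b, the pair with a shared seed, ribosomal protein mRNAs were lower with miR-93: the median log2 ratio of miR-93 over miR-106b was -0.44, against 0.00 over all genes tested, and 71 of 82 members were negative. Past 1.3-fold, 44 members were lower with miR-93 (53.7%, against 8.21% of all genes tested) and 0 were higher (against 7.3%). After rescaling to the same sum 36 were lower and 0 higher, without a share of all genes on that scale. The rescaled median was -0.33 in members and 0.12 over all genes tested. The smallest ratio was that of Rps15a, a 40S protein, which stood at 320.3 RPKM in control cells, 396 after miR-106b, 198 after miR-93 and 163 after miR-25, a log2 ratio of -0.998 (-1.07 to -0.92) for miR-93 over miR-106b. Rpl27, a 60S protein, stood at 155 RPKM in control cells, 212 after miR-106b, 109.9 after miR-93 and 90.5 after miR-25, a log2 ratio of -0.95 (-1.04 to -0.86). The largest ratio was that of Rpl5, at 0.16 (0.13 to 0.19). These 3 members were chosen after their values were seen, from the ends of the range.

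Between miR-25 and miR-106b the median was -0.67, with 54 members lower with miR-25 past 1.3-fold (65.9%, against 23.0% of all genes tested) and 0 higher (against 22.1%). Between miR-25 and miR-93 the median was -0.23, and 14 members were lower with miR-25 (17.1%, against 23.0%) and 1 was higher (1.22%, against 22.1%). The share of members past the cutoff between miR-25 and miR-93 was thus below that of all genes, although the median was negative.

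**Figure D4:**
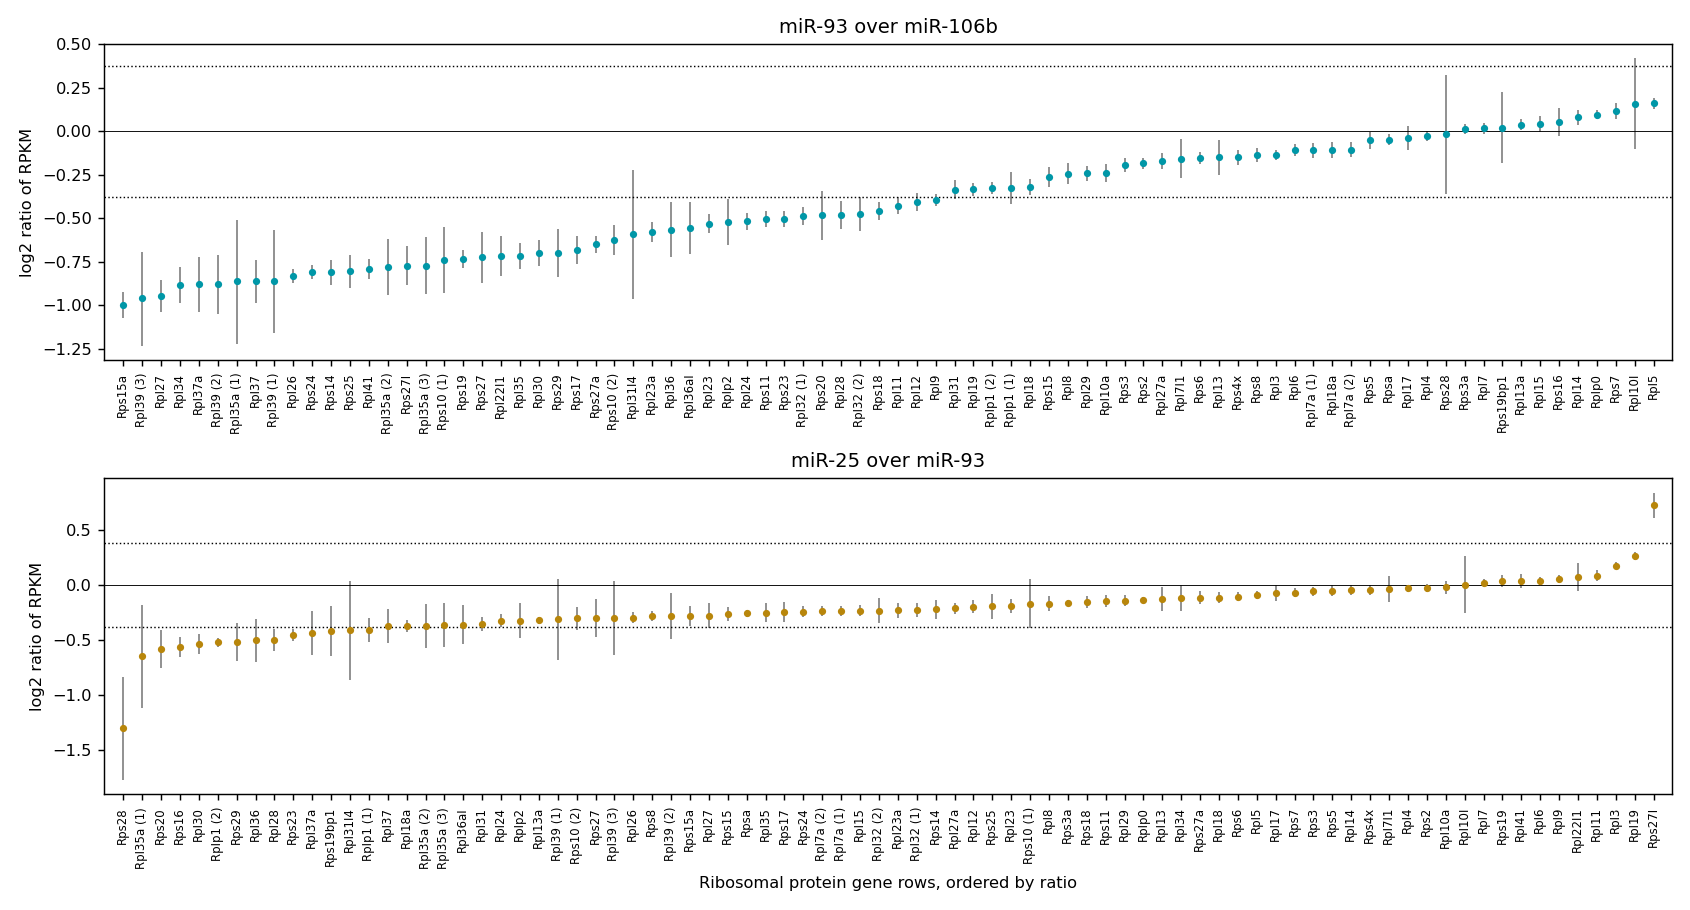
log2 ratio of RPKM of each of the 82 rows between 2 mimics, miR-93 over miR-106b above and miR-25 over miR-93 below, ordered by ratio, with 95% exact counting intervals (grey) and dotted lines at 1.3-fold. In the upper panel 44 rows lie below the lower dotted line and 0 above the upper one, and in the lower panel Rps28 (-1.30) and Rps27l (0.72) lie apart from the rest.

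Both subunits had medians of the same sign with each mimic, on the deposited and on the rescaled values. The median log2 ratio over the control of the 53 60S rows was 0.22 (miR-106b), -0.20 (miR-93) and -0.42 (miR-25). For the 29 40S rows it was 0.16, -0.28 and -0.62. Past the cutoff, 28 of the 60S rows (52.8%) and 19 of the 40S rows (65.5%) were lower with miR-25, against 22.6% of all genes tested. With miR-93 these were 15 (28.3%) and 14 (48.3%), against 15.6%. On the rescaled values the counts were smaller, at 16 and 15 with miR-25 and 5 and 8 with miR-93. The shares of all genes given here are of the deposited values only. The ratio of the summed 60S level to the summed 40S level lay between 1.46 (miR-106b) and 1.51 (miR-93) with the 3 mimics and was 1.40 in the control.

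The members of the P stalk, the arm of the 60S subunit that recruits elongation factors, differed among themselves. Rplp0, its base, stood at 919 RPKM in control cells, 779.6 after miR-106b, 833 after miR-93 and 760.1 after miR-25, at log2 ratios of -0.24 (-0.26 to -0.21) for miR-106b and -0.27 (-0.30 to -0.25) for miR-25. It was below the control with all 3 mimics on the deposited values, and level with it for miR-93 (0.01) on the rescaled ones. The higher of the Rplp1 rows stood at 852 RPKM in control cells, 1061 after miR-106b, 846 after miR-93 and 589.5 after miR-25, at log2 ratios of 0.32 (0.28 to 0.35) for miR-106b and -0.53 (-0.57 to -0.49) for miR-25. Rplp2 stood at 94.7 RPKM in control cells, 114 after miR-106b, 79.5 after miR-93 and 63.6 after miR-25, at log2 ratios of 0.27 (0.14 to 0.40) for miR-106b and -0.57 (-0.73 to -0.42) for miR-25. Both partners of Rplp0 were thus above the control with miR-106b and below it with miR-25.

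Rpl5 and Rpl11 carry 5S ribosomal RNA into the large subunit and, when free, bind the p53 ligase Mdm2. Rpl5 stood at 490.3 RPKM in control cells, 438 after miR-106b, 490.3 after miR-93 and 461 after miR-25, with the miR-93 and control values equal to the digits given. Rpl11 stood at 67.1 RPKM in control cells, 65.4 after miR-106b, 48.7 after miR-93 and 51.7 after miR-25, lower with miR-93 and miR-25 at log2 ratios of -0.46 (-0.51 to -0.41) and -0.38 (-0.43 to -0.33). Around the exit tunnel, Rpl4, Rpl17 and the 3 Rpl39 rows line the wall and Rpl19, Rpl23a, Rpl26, Rpl31 and Rpl35 surround the rim. With miR-25, all 3 Rpl39 rows and 4 of the 5 rim proteins were past the cutoff downward, against 22.6% of all genes tested, in a grouping made after the values were seen. On the rescaled values the 3 Rpl39 rows were past it still, but of the rim proteins 1 (Rpl26) was past it downward and 1 (Rpl19) upward. Rpl4 stood at 540.3 RPKM in control cells, 498 after miR-106b, 488 after miR-93 and 478 after miR-25, within the cutoff with every mimic. Rpl17 stood at 122 RPKM in control cells, 131 after miR-106b, 128 after miR-93 and 121 after miR-25, also within it.

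At the mRNA entry of the 40S subunit, Rps2 stood at 979 RPKM in control cells, 1194 after miR-106b, 1051 after miR-93 and 1029.7 after miR-25. Rps3 stood at 475 RPKM in control cells, 501 after miR-106b, 437 after miR-93 and 421 after miR-25. Neither passed the cutoff with any mimic. Rps23, which reaches into the decoding centre, stood at 504 RPKM in control cells, 629 after miR-106b, 444 after miR-93 and 324 after miR-25, a log2 ratio of -0.64 (-0.69 to -0.58) with miR-25. Rps6, the 40S protein that S6 kinase phosphorylates downstream of mTOR, stood at 585 RPKM in control cells, 647 after miR-106b, 582 after miR-93 and 541 after miR-25, within the cutoff throughout. Rps27a, made as a fusion of ubiquitin with a 40S protein, stood at 566 RPKM in control cells, 616 after miR-106b, 393 after miR-93 and 363 after miR-25, at log2 ratios of -0.53 (-0.58 to -0.47) with miR-93 and -0.64 (-0.70 to -0.59) with miR-25.

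Paralogs and their core partners did not always stand on the same side of the control. Rps27l, a paralog of Rps27 known as a p53 target, stood at 54.3 RPKM in control cells, 82.8 after miR-106b, 48.5 after miR-93 and 80.1 after miR-25, a log2 ratio of 0.61 (0.49 to 0.72) after miR-106b, -0.16 (-0.30 to -0.03) after miR-93 and 0.56 (0.44 to 0.68) after miR-25. With miR-25 it was therefore above the control where its core partner Rps27 was at a log2 ratio of -1.11. Rpl22l1 stood at 109.5 RPKM in control cells, 103 after miR-106b, 62.9 after miR-93 and 66.1 after miR-25, past the cutoff downward with miR-93 and miR-25. Rpl7l1 stood at 55.2 RPKM in control cells, 65.3 after miR-106b, 58.5 after miR-93 and 57.1 after miR-25. Its partner Rpl7 stood at 102 RPKM in control cells, 97.4 after miR-106b, 98.6 after miR-93 and 100.0 after miR-25. Both stayed within the cutoff with every mimic. Rpl31l4 stood at 22.8 RPKM in control cells, 25.4 after miR-106b, 16.9 after miR-93 and 12.7 after miR-25, a log2 ratio of -0.84 (-1.29 to -0.41) with miR-25, beside -0.56 (-0.62 to -0.49) for Rpl31. Rpl36al stood at 38.8 RPKM in control cells, 47.2 after miR-106b, 32.2 after miR-93 and 25.1 after miR-25, past the cutoff downward with miR-25. Rpl10l, a testis paralog of Rpl10, stood at 13.1 RPKM in control cells, 12.7 after miR-106b, 14.1 after miR-93 and 14.2 after miR-25, with intervals of all 3 ratios that included 0. Rpl10, Rpl22 and Rpl36a gave no member row and are not analysed here.

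Gene length moved with these ratios. Lengths were recovered from the RPKM values as the smallest whole number that gives whole reads in all 4 libraries, and can be a fraction of the true length for some rows. The median was 556 nt in members and 2314 nt over all genes above 1.0 RPKM in the control. In the 34 members under 500 nt the median log2 ratio was 0.27 (miR-106b), -0.44 (miR-93) and -0.76 (miR-25). With the last, 31 of the 34 (91.2%) were past the cutoff downward, and 23 on the rescaled values. In the 24 members of 500 nt to under 750 nt the medians were 0.22, -0.12 and -0.34. In the 24 members of 750 nt or more they were 0.03, -0.11 and -0.19, with 6 past the cutoff downward with miR-25. This share (25.0%) was close to that of all genes tested (22.6%) and of other genes above 10 RPKM of that length (23.8%). Members under 500 nt thus lay farthest from the control with each mimic. On the rescaled values the medians of members under 500 nt were 0.31, -0.29 and -0.52, while those of 500 nt or more turned from -0.11 to 0.03 for miR-93 and from -0.21 to 0.03 for miR-25. Spearman's rho of length with the log2 ratio over the 82 members, which share libraries and in part reads, was -0.49 (miR-106b), 0.31 (miR-93) and 0.54 (miR-25). For miR-93 over miR-106b it was 0.58.

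Genes that encode no cytosolic ribosomal protein varied with length too. Among those above 100 RPKM in the control, the 67 under 500 nt had medians of 0.19 (miR-106b), -0.18 (miR-93) and -0.70 (miR-25), where 76.1% were past the cutoff downward. The 56 such genes of 500 nt to under 750 nt had medians of 0.07, -0.20 and -0.64, and the 330 of 750 nt or more had -0.08, -0.14 and -0.27. Members under 500 nt had a median of -0.76 with miR-25 beside -0.70 for these short abundant genes, with a larger share past the cutoff (91.2% beside 76.1%), and of -0.44 beside -0.18 with miR-93. At the members' own cutoff of 10 RPKM, the 288 other genes under 500 nt had a miR-25 median of -0.49, with 58.3% past the cutoff downward. Among members of 500 nt to under 750 nt the miR-25 median (-0.34) was closer to 0 than that of the other genes of that length above 100 RPKM (-0.64). It was farther from 0 than that of the 265 other genes of that length above 10 RPKM (-0.23), so the order depended on the level of the genes compared. The plot against gene length shows both sets. The part of gene length in the ratios was not tested.

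**Figure D5:**
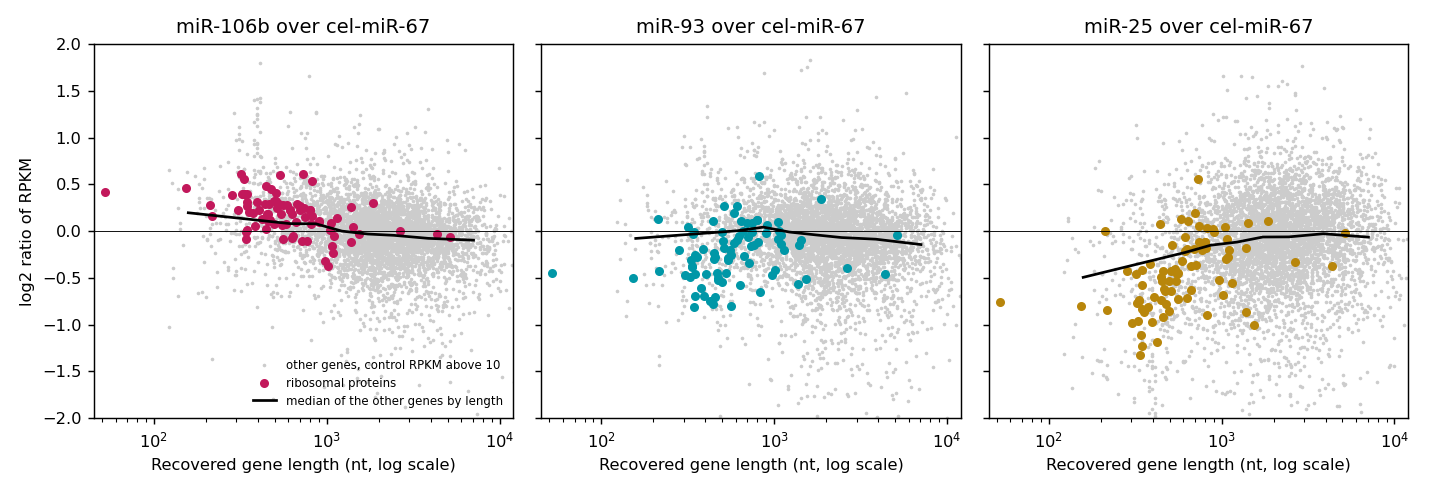
log2 ratio of RPKM over cel-miR-67 against recovered gene length (log scale) for the 82 ribosomal protein rows (coloured) and for other genes above 10 RPKM in the control (grey, median by length in black); values beyond 2 on either side are not drawn. With miR-25 the short rows lie lowest and the black line, drawn in narrower length classes, falls toward short genes too. The pooled median of the other genes was -0.07 at 750 nt or more and -0.49 under 500 nt.

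Marker genes of the cell types that such a culture can hold also differed between the libraries. All 8 cardiomyocyte markers listed were detected, with a summed level of 12848 RPKM in control cells, 12937 after miR-106b, 10623 after miR-93 and 6931 after miR-25. Among them Tnni3, the cardiac troponin I, was at 15.9 RPKM with miR-25 and at 351 in the control. The 6 fibroblast markers summed to between 302 RPKM (miR-25) and 799 (control), and the 4 smooth muscle markers to between 583 (miR-93) and 2051 (miR-25). Endothelial (4 of 5 found), macrophage (4 of 4) and erythroid markers (2 of 3) summed to at most 8.46 RPKM in any library, with none of those found at 0. Their part in the ribosomal protein levels was not tested.

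Genes of related processes, taken from separate lists, had medians nearer to 0 than the members with each mimic on the deposited values. On the rescaled values several of these medians changed sign: ribosome biogenesis (0.05), RNA polymerase I (0.08) and translation factors (0.09) were above the control for miR-93, and RNA polymerase I (0.17) and translation factors (0.07) for miR-25. Of 75 mitochondrial ribosomal proteins, which build the separate ribosomes of mitochondria, the miR-106b library had 8 higher and 1 lower past the cutoff, the miR-93 library 7 higher and 3 lower and the miR-25 library 4 higher and 34 lower, at medians of 0.06, 0.06 and -0.28. With miR-93 the median of the cytosolic members was -0.22 beside 0.06 for the mitochondrial ones, and on the rescaled values -0.07 beside 0.21. Mrps18a stood at 53.9 RPKM in control cells, 59.4 after miR-106b, 57.6 after miR-93 and 26.6 after miR-25, lowest of that list with miR-25. Mrps12 stood at 4.66 RPKM in control cells, 19.7 after miR-106b, 18.6 after miR-93 and 15.2 after miR-25, the highest ratio of the list with each mimic. Of all genes tested, 11.9% (miR-106b), 15.1% (miR-93) and 19.3% (miR-25) were past the cutoff upward. Downward the shares were 12.7%, 15.6% and 22.6% in the same order. For miR-25, mitochondrial ribosomal proteins and ribosome biogenesis exceeded the downward share, and the other related lists stayed below it. For the other mimics all related lists stayed below it. Upward, only the mTOR pathway exceeded the share of all genes, for each mimic.

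Of 91 ribosome biogenesis factors tested, the miR-106b library had 2 higher and 4 lower, the miR-93 library 2 higher and 12 lower and the miR-25 library 2 higher and 32 lower, at medians of 0.04, -0.10 and -0.26. Rrp12, needed for export of both subunits, stood at 9.49 RPKM in control cells, 6.44 after miR-106b, 4.48 after miR-93 and 4.57 after miR-25, the lowest ratio of this list with each mimic. Nop56, a core protein of the box C/D snoRNPs, stood at 39.2 RPKM in control cells, 40.2 after miR-106b, 34.6 after miR-93 and 20.2 after miR-25. Of the nucleolar proteins, Ncl stood at 66.8 RPKM in control cells, 69.5 after miR-106b, 63.9 after miR-93 and 47.9 after miR-25, past the cutoff downward with miR-25. Fbl stood at 8.85 RPKM in control cells, 9.39 after miR-106b, 8.83 after miR-93 and 7.71 after miR-25. The higher of the Npm1 rows stood at 239 RPKM in control cells, 306 after miR-106b, 268 after miR-93 and 197 after miR-25. Fbl and this Npm1 row were not past it with any mimic.

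Of 14 RNA polymerase I genes, which serve the transcription of ribosomal RNA, 0 were higher past the cutoff with any mimic, 1 was lower with miR-106b and 2 were lower with each of the other mimics. The medians were -0.01, -0.07 and -0.06. Polr1a, the largest subunit, stood at 9.61 RPKM in control cells, 8.22 after miR-106b, 7.16 after miR-93 and 6.60 after miR-25, lower than the control with all 3 mimics and lowest with miR-25. Polr1b stood at 5.73 RPKM in control cells, 4.80 after miR-106b, 4.63 after miR-93 and 3.48 after miR-25.

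Of 57 translation factors and associated genes, the miR-106b library had 4 higher and 2 lower, the miR-93 library 2 higher and 5 lower and the miR-25 library 1 higher and 8 lower, at medians of 0.05, -0.05 and -0.17. Elongation factors have mRNAs of the TOP class as well. Eef1a1 stood at 2769 RPKM in control cells, 2904 after miR-106b, 2906 after miR-93 and 2646 after miR-25. Eef2 stood at 726 RPKM in control cells, 614 after miR-106b, 569 after miR-93 and 639 after miR-25. Both were within the cutoff with every mimic. Eif5a2 stood at 6.37 RPKM in control cells, 4.70 after miR-106b, 4.34 after miR-93 and 12.1 after miR-25, the highest ratio of the list with miR-25.

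Of 35 mTOR pathway genes tested, the miR-106b library had 5 higher and 2 lower, the miR-93 library 8 higher and 5 lower and the miR-25 library 8 higher and 6 lower, at medians of 0.09, 0.11 and 0.00. Mtor, the kinase, stood at 6.74 RPKM in control cells, 10.2 after miR-106b, 8.87 after miR-93 and 10.6 after miR-25, higher with each mimic past the cutoff at log2 ratios of 0.60 (0.51 to 0.70), 0.39 (0.30 to 0.49) and 0.65 (0.55 to 0.74). Larp1, which binds TOP mRNAs, stood at 13.4 RPKM in control cells, 16.3 after miR-106b, 13.9 after miR-93 and 14.3 after miR-25. Eif4ebp1, the repressor of cap-dependent translation that mTOR phosphorylates, stood at 70.1 RPKM in control cells, 81.5 after miR-106b, 83.2 after miR-93 and 52.2 after miR-25, a log2 ratio of -0.43 (-0.54 to -0.31) with miR-25. Rps6kb1, the S6 kinase, stood at 21.7 RPKM in control cells, 22.1 after miR-106b, 19.6 after miR-93 and 10.6 after miR-25, a log2 ratio of -1.03 (-1.17 to -0.89) with miR-25 and within the cutoff with the other mimics. Myc, a transcription factor that drives ribosome production, was low in all libraries, at 2.83 RPKM in control cells, 2.77 after miR-106b, 2.46 after miR-93 and 1.35 after miR-25.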

How the data were processed

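RNA of neonatal rat cardiomyocytes was sequenced as 50-base single reads, with 1 library for each of 4 mimics. As the methods state, the authors trimmed the reads with Cutadapt, aligned them with STAR (version 2.7 in the submitters' processing notes) to Rnor_6.0, rounded the gene counts and made the deposited RPKM values with the rpkm function of edgeR. The counting program, its use of strand and its handling of reads that match several copies are not given in the sources used here. The per-sample values of all 4 libraries were identical to the table of the series, which was used here.

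Ratios are of deposited RPKM without a pseudocount. The cutoffs of 1.3-fold and RPKM 1.0 follow the results text of the study, whose methods give an RPKM of 2.0. Since RPKM values of a gene move in steps of 1 read, whole reads were recovered for all 15731 genes (relative tolerance 1e-07). Recovered reads and lengths are the smallest that are whole in all libraries, so reads can be too few and intervals too wide for some rows. The recovery was tested on simulated data. Library sizes behind the RPKM values in units of 1000000 reads were 29.7, 27.3, 27.3 and 22.7 for miR-106b, miR-93, miR-25 and cel-miR-67, and listed genes held 60.4% to 66.9% of them. With 1 library per mimic no count test was made.

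The genes named were, for each mimic, the members with the 6 largest and the 6 smallest log2 ratios, the stalk proteins, Rpl5, Rpl11, Rpsa, Rps3, Rps6, Rps27a, the paralogs with their partners, the 5 highest and 5 lowest in the control, and from each related list the 2 largest and 2 smallest ratios per mimic and genes fixed by name, of which only some are printed. Members, gene lists, promoter motifs and this rule were chosen with earlier results of these data known, and the grouping by place in the ribosome was written after the values were seen. Alternatives were other RPKM and fold cutoffs, pseudocounts, scalings and choices of members. No chromosomal position of members in Rnor_6.0 was used. Computations used Python 3.11.15, numpy 2.4.6, pandas 2.3.3, scipy 1.17.1 and matplotlib 3.10.9.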

Additional observations from a re-analysis of the deposited data

How the results depend on the processing

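Every alternative taken alone left the medians of the 3 mimics over the control with the same sign, whereas rescaling turned those of members of 500 nt or more to 0.03 (miR-93) and 0.03 (miR-25). Of the medians, summed levels and counts recomputed, 188 stayed within their error or within 1.5 times and 71 moved further. At a cutoff of 1.2-fold, 29 members were higher and 2 lower for miR-106b and 4 were higher for miR-93. At 1.5-fold, 3 were higher for miR-106b, 9 lower for miR-93, and 31 lower and 0 higher for miR-25. At 2-fold, 0 were higher for miR-106b, 0 higher and 0 lower for miR-93, and 0 higher and 5 lower for miR-25. No share of all genes is given at these other cutoffs, so the counts show only how the calls depend on the cutoff. Rescaled to the same sum, miR-93 had 4 higher, 13 lower and a median of -0.072, miR-25 had 2 higher, 31 lower and a median of -0.20, the median of miR-25 over miR-93 was -0.14, and the summed levels were 79115 (miR-106b), 68560 (miR-93), 65279.6 (miR-25) and 70174 (cel-miR-67) per 1000000. With control RPKM above 100, 6 members were higher for miR-106b, 0 for miR-93 and 0 for miR-25. With every symbol match and no RPKM minimum, 6 were lower for miR-106b, 6 higher for miR-93 and 5 higher for miR-25. Several of these added rows were below 1.0 RPKM and rested on very few reads. Rpl3l, for example, had 4 reads in control cells and 1 after miR-106b. Without symbols on several rows, 8 were higher for miR-106b, and with core proteins alone 0 were higher for miR-25. Among members of 500 nt or more, 4 were higher for miR-106b, 10 lower for miR-93 and 16 lower for miR-25, at medians of 0.12, -0.11 and -0.21. Among members of 750 nt or more, these were 1, 7 and 6, with 0 higher for miR-25, at medians of 0.029, -0.11 and -0.19. The length alternatives, and those that summed rows of 1 symbol or left out Rps19bp1, were chosen after seeing the data.

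At 1.5-fold, the related lists held these numbers higher and lower, again given without a share of all genes. Mitochondrial ribosomal proteins had 2 and 0 (miR-106b), 2 and 1 (miR-93), and 1 and 17 (miR-25). Ribosome biogenesis had 1 and 0, 0 and 2, and 1 and 11. Translation factors had 0 and 0, 1 and 2, and 1 and 5, and after centring on the median gene 2 were higher past 1.3-fold for miR-25. The mTOR pathway had 1 and 1, 1 and 1, and 5 and 2. RNA polymerase I had 0 lower for miR-106b, 0 for miR-93 and 1 for miR-25. Where a count changed with the cutoff or with fewer members, the alternative's own construction changed it. Rescaling moved every log2 ratio of a comparison by the same amount, so its changes in counts followed from its construction too. Why the summed RPKM differed between the libraries was not tested.

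With 1 library per mimic, counting error is the only error that these data give, and variation between cultures is unknown. It was narrow for abundant members and wide for Rps28, Rpl35a, Rpl31l4 and Rpl10l. No paired analysis was possible because each group held 1 library.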
